A study of Mus musculus with 6 samples.

Results

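Cluster 10 of the deposited annotation held 483 of the 38154 nuclei of the series, and all nuclei carrying that cluster number were taken, from all 6 samples. Enterochromaffin cells are the serotonin-producing branch of the enteroendocrine lineage, the hormone-secreting cells scattered through the intestinal epithelium. They make serotonin from tryptophan through the enzyme Tph1, load it into dense-core granules with chromogranins, and release it when ion channels at the cell surface are opened by chemical or mechanical stimuli, and many of them also make the peptide substance P from Tac1. Their sister enteroendocrine cells secrete peptides such as Gip, Cck and the products of Gcg. The 6 marker genes given for cluster 10 were Lmx1a, Scn3a, Tph1, Nrg1, Tac1 and Trpc7.

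The nuclei came from organoids grown from jejunal crypts of C57BL/6 mice 8-12 weeks old, a culture of intestinal epithelium without stroma, immune cells or nerves added. Organoids were kept in conditioned medium of quiescent mouse embryonic fibroblasts (QCM, 3 samples) or of fibroblasts made senescent (SCM, 3 samples), so that the contrast of SCM with QCM asks how secreted factors of senescent cells (the SASP) act on the epithelium. All 6 samples were thus exposed to a fibroblast-conditioned medium, and the sources used here do not say whether irradiation or doxorubicin made the SCM fibroblasts of these samples senescent. Nuclei were isolated from frozen organoids and profiled by 3′ single-nucleus RNA-seq, whose unit is the UMI, a tag that marks 1 captured RNA molecule.

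The 6 samples held between 430 and 10833 nuclei and between 4071926 and 41035733 UMIs. Cluster 10 held 29, 73 and 205 nuclei in QCM replicates 1, 2 and 3 and 4, 78 and 94 nuclei in SCM replicates 1, 2 and 3. SCM replicate 1 stood apart. It had 430 nuclei in all, 175 of its barcodes (40.7%) also occurred in QCM replicate 1, and 2 of its 4 cluster 10 nuclei carried such a barcode, whereas no other pair of samples shared more than 36 barcodes. QCM replicate 1 was the deepest, with a median of 8429 UMIs per cluster 10 nucleus against 1621 to 3366 in the other samples. Xist, the RNA of the inactive X chromosome, stood at 4100 and 6604 counts per 1000000 counted UMIs (CPM) in the nuclei outside cluster 10 of QCM replicate 1 and SCM replicate 1 and at no more than 2.51 CPM in the other samples. Gene levels below were taken from UMI counts summed over the nuclei of a sample and given as CPM of that sum, in the 5 samples with at least 10 cluster 10 nuclei (QCM 1, 2 and 3 and SCM 2 and 3), and the share of nuclei is given with and without SCM 1.

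The clusters had been made from these same genes, so the levels of cluster 10 against other nuclei are a description with no test. Tph1, the rate-limiting enzyme of serotonin synthesis in the gut, stood at 194, 129 and 128 CPM in QCM 1, 2 and 3 and at 57.2 and 118 CPM in SCM 2 and 3. In all other nuclei of the same samples it stood between 1.12 and 2.41 CPM, so that the groups did not overlap, and the mean of 125 ± 48.5 CPM (SD, n = 5) was 68.1 times that of the other nuclei. Tac1, the precursor of substance P, stood at 123, 197, 209, 77.7 and 136 CPM in the same order, against 5.70 ± 3.86 CPM (SD, n = 5) outside the cluster. Lmx1a, a LIM homeodomain transcription factor of serotonin-producing cells, stood at 171, 302, 221, 163 and 257 CPM, which gave a ratio of 84.6 between the means. SCM 2 had the lowest level of all 3 genes.

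Among the remaining markers, Scn3a, a voltage-gated sodium channel subunit, stood at 447, 298 and 214 CPM in the QCM samples and at 139 and 250 CPM in SCM 2 and 3. Nrg1, a ligand of the ErbB receptors, stood at 1521, 1021 and 435 CPM in QCM and at 392 and 619 CPM in SCM, and was the marker that varied most between samples, with a mean of 798 ± 474 CPM (SD, n = 5). Trpc7, a calcium-permeable cation channel, stood at 44.7, 84.4 and 73.8 CPM in QCM and at 28.6 and 93.9 CPM in SCM. In each of the 5 samples every marker was at least 13.3 times its level in the nuclei outside the cluster. Even so, cluster 10 held only 48.6% of all Lmx1a UMIs of the series, 44.0% of those of Scn3a, 42.7% of those of Tph1, 39.9% of those of Trpc7, 33.7% of those of Nrg1 and 22.0% of those of Tac1. The rest lay in nuclei of other clusters.

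**Figure D1:**
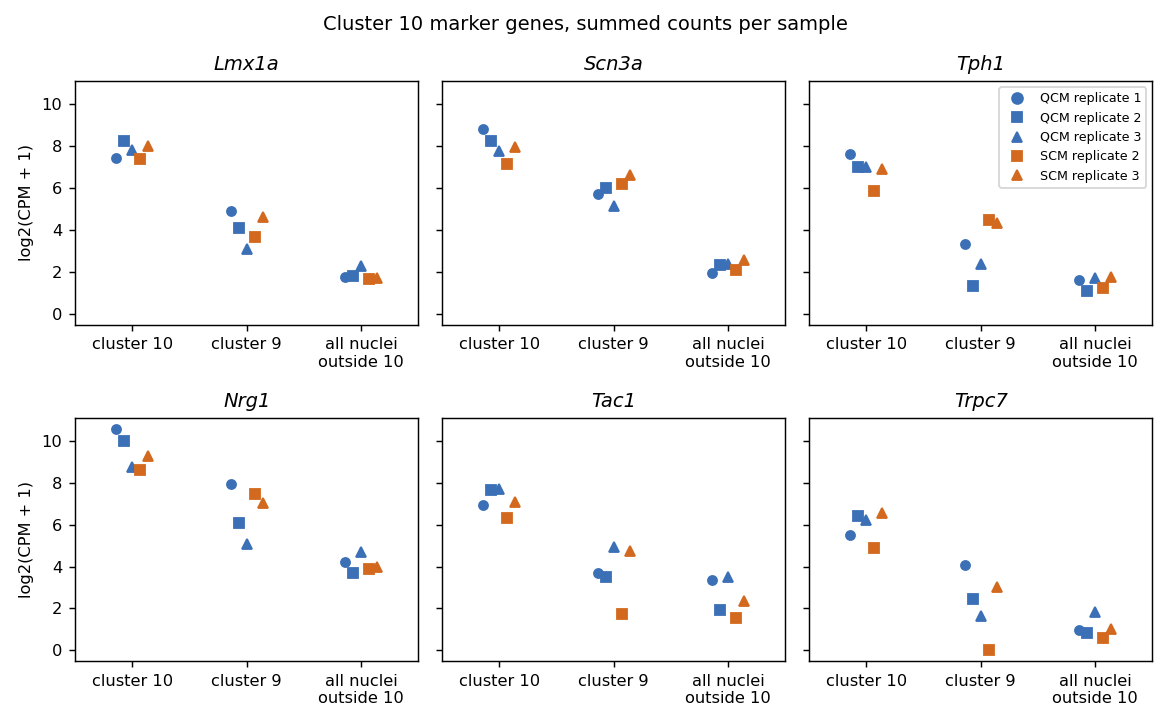
Level of the 6 marker genes, as log2(CPM + 1) of counts summed per sample, in cluster 10, in cluster 9 and in all nuclei outside cluster 10. Each point is a sample (blue QCM, orange SCM). For Tph1 the cluster 10 points lie between 57.2 and 194 CPM and the points for all nuclei outside it between 1.12 and 2.41 CPM.

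The promoters of Tph1 and Tac1, which gave the cluster its label, and of Chga are shown as the 250 bases before the RefSeq start of each gene (GRCm38.p6), 5′ to 3′ on the gene's strand. By the GENCODE M21 annotation, Tph1 lies on chromosome 7 at 46644641-46672537 on the minus strand, Tac1 on chromosome 6 at 7554879-7565834 on the plus strand and Chga, the granule protein chromogranin A, on chromosome 12 at 102554969-102565028 on the plus strand. The windows are chr7:46672538-46672787 for the first Tph1 start, chr7:46667378-46667627 for the second, chr6:7554811-7555060 for Tac1 and chr12:102554691-102554940 for Chga. RefSeq and GENCODE place the starts of Tac1 and Chga at different bases, so that most of the Tac1 window lies within its GENCODE span, and distances below are from the RefSeq start. Capitals mark TAATTA, a core bound by many homeodomain factors that reads the same on both strands, and TGACGT, the core of the cAMP response element, searched on both strands.
Tph1, first start: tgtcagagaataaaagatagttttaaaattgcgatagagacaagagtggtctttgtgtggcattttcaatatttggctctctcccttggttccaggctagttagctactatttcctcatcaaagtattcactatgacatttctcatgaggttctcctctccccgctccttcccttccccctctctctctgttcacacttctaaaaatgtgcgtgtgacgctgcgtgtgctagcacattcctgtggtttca
Tph1, second start: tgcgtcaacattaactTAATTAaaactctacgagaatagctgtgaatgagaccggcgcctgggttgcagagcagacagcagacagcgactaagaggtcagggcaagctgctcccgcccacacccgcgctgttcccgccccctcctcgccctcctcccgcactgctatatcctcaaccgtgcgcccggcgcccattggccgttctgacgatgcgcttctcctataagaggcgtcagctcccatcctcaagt
Tac1: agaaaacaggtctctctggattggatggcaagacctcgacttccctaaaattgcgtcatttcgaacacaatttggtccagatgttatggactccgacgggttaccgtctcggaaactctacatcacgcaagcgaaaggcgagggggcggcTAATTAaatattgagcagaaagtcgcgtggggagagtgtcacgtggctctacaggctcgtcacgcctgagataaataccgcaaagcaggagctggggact
Chga: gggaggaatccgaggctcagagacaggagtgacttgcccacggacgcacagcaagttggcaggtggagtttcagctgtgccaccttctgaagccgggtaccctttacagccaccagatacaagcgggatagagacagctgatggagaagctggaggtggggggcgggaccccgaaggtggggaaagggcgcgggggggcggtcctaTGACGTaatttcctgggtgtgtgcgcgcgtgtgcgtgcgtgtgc
TAATTA was found 234 bases before the second Tph1 start and 100 bases before the RefSeq Tac1 start, and TGACGT 44 bases before the Chga start. Of all 32851 windows of this length, 4.84% held TAATTA and 6.47% held TGACGT. Of the 6 markers 4 had a window, and neither motif was found in those of Lmx1a and Trpc7. These are letter matches and say nothing of what binds there.

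Over all genes with a UMI in cluster 10 in each of the 5 samples, 111 of 10685 (1.04%) were at least 2-fold higher in cluster 10 than in the other nuclei in every sample. In the opposite direction the count was 0 of 24100 genes with a UMI outside the cluster in each sample (0%), of which only 6393 were high enough outside it to reach 2-fold over the floor of 3 counts set for cluster 10. The 15 genes with the highest ratios, ranked by their lowest ratio over the samples among genes with at least 50 CPM, were the 6 markers with Slc38a11, Pappa2, Rab3c, Cdk14, Syn2, Grik4, Rimbp2, Ncam2 and Gm5159. Slc38a11, of the SLC38 family of amino acid transporters, stood at 74.5, 80.4 and 36.9 CPM in QCM and at 16.3 and 62.6 CPM in SCM, against a mean of 0.871 CPM outside the cluster. Pappa2, a protease of insulin-like growth factor binding proteins, ranged from 28.6 to 127 CPM. Cdk14, a cyclin-dependent kinase, was the steadiest of them, at 112, 129, 153, 106 and 122 CPM.

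Rab3c, a vesicle GTPase, stood between 89.9 and 410 CPM in cluster 10, at 42.8 times its mean outside it. In cluster 9, the other endocrine-marked cluster, Rab3c stood between 40.2 and 137 CPM, which overlaps. Cluster 9 held 29.9% of all Rab3c UMIs and cluster 10 held 31.3%. Syn2, a synapsin of synaptic vesicles, and Rimbp2, a scaffold of the release site, stood at 72.4 ± 17.7 and 215 ± 48.1 CPM (SD, n = 5). Grik4, a kainate-type glutamate receptor subunit, stood between 88.5 and 167 CPM, and Ncam2, an adhesion molecule, between 106 and 294 CPM. Gm5159, a predicted gene, stood between 41.0 and 84.4 CPM. Of 782 cluster 9 nuclei, Rimbp2 was read in 248, Ncam2 in 196 and Syn2 in 111.

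Of the 16 genes listed for enterochromaffin cells, 11 had a UMI in every sample and 9 of these were at least 2-fold higher in cluster 10 throughout. Of these 9, 6 were the markers given for the cluster, which restate its choice, and of the other 5 genes 3 were higher, against 1.04% of all genes. They were Slc18a1, the vesicular monoamine transporter of endocrine cells, and the granule proteins Chga and Chgb. Slc18a1 stood at 156 ± 20.5 CPM in cluster 10 and at 14.3 ± 3.54 CPM outside it, and Chga at 217 ± 84.8 and 11.8 ± 6.26 CPM (SD, n = 5). Of the 14 genes of serotonin synthesis, storage and removal only Tph1 and Slc18a1 met the criterion, of 12 that could. Ddc, which makes serotonin from the product of Tph1, stood at 177 ± 34.9 CPM against 82.6 ± 13.05 CPM, a ratio of 2.15 between the means. The reuptake transporter Slc6a4 stood at 29.7 ± 21.8 against 24.2 ± 4.34 CPM and the degrading enzyme Maoa at 107 ± 25.1 against 132 ± 26.0 CPM, within the spread of the samples.

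Of the 16 genes listed for enterochromaffin cells, 12 reached a mean of 10 CPM in cluster 10. Fev, Ucn3, Adra2a and Piezo2 did not. A pair of enterochromaffin sensors had few UMIs. Trpa1, a channel opened by irritants, was read 27 times in cluster 10 and stood at 0, 4.02 and 27.1 CPM in QCM and at 36.8 and 20.9 CPM in SCM, against 0.464 CPM on average outside it. Piezo2, the mechanosensitive channel, was read only 3 times, and its level of 1.99 ± 1.90 CPM (SD, n = 5) could not be told from that of the other nuclei at this depth.

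Against the 1.04% of all genes, and with the markers Scn3a, Trpc7, Lmx1a, Tac1 and Nrg1 counted in their lists, the other lists stood as follows. Of 20 genes of granules and exocytosis that could be judged, 10 were at least 2-fold higher in every sample, among them Pcsk1, a prohormone convertase, and Ptprn2, a dense-core granule phosphatase, which stood at 56.8 ± 16.1 and 823 ± 275 CPM (SD, n = 5). Of 18 ion channels, 8 met the criterion (Scn3a, Cacna1a, Cacna1d, Cacna1h, Cacna2d1, Kcnb2, Trpc7 and Trpm2). Of 12 enteroendocrine transcription factors, 5 did (Neurod1, Nkx2-2, Rfx6, Lmx1a and Myt1). Of 5 gut hormones with a UMI in every sample only Tac1 did, and of 10 ligands and receptors of the EGF family only Nrg1. Among 4 surface receptors only the glutamate receptor Grm4 did. Against cluster 9, the other endocrine-marked cluster, 0 of the 20 granule genes and 1 of the 18 channels were 2-fold higher in cluster 10 in every sample, beside 0.112% of all genes. At least 2-fold lower were 1 of 28 granule genes (Cpe) and 2 of 20 channels (Cacna1c and Kcnma1), beside 0.202% of all genes. In cluster 9 the granule genes summed to 2918-6234 CPM against 2072-3466 CPM in cluster 10 and the channels to 2693-6717 against 1734-2554 CPM.

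Markers of other epithelial cells were present in cluster 10 at levels like those around it. No gene listed for enterocytes, goblet cells, Paneth cells, ISCs, the Notch pathway, the fetal state or YAP targets was at least 2-fold higher in every sample. The enterocyte markers summed to between 1572 and 5155 CPM in cluster 10 and to between 1844 and 5597 CPM in the other nuclei of the 5 samples. The goblet markers summed to 826-2173 against 681-2045 CPM, the Paneth markers to 296-3124 against 354-2684 CPM and the ISC markers to 1436-2640 against 1457-2698 CPM. Of 3 immune and stromal genes that could be judged, Pecam1 and Rbfox3 were higher throughout, at 21.7 ± 8.78 and 24.1 ± 9.48 CPM (SD, n = 5), while Ptprc, which marks leukocytes, had no UMI in cluster 10. The immune and stromal genes summed to 45.2-92.5 CPM in cluster 10 and 12.5-29.0 CPM outside it, and tuft markers to 8.04-36.9 and 18.6-36.2 CPM.

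The levels of the sums came from few of the nuclei. Of the 483 nuclei, 160 (33.1%) had no UMI of any of the 6 markers and 222 (46.0%) had UMIs of exactly 1 of them. A further 34 nuclei had 2 markers and 15 had 3, and 10, 27 and 15 nuclei had 4, 5 and 6. Tph1 was read in 81 of the 483 nuclei and Tac1 in 114, both in 42 and neither in 330. Of the 222 nuclei with 1 marker, 210 held exactly 1 marker UMI, most often of Lmx1a (76 nuclei), Scn3a (52) or Tac1 (46). The 13 clusters other than 9 and 10 give the background: 7.99% of their 36889 nuclei had a UMI of any marker and 0.0325% had 3 or more, at a median of 2142 UMIs per nucleus against 1903 in cluster 10.

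Depth was evened by drawing 1000 UMIs from each nucleus and leaving out the shallower ones. Of the 421 cluster 10 nuclei left, 42.5% had a UMI of any marker and 8.31% had 3 or more. In the other 13 clusters 2.72% of 33873 nuclei had a UMI of any marker and none had 3 or more.

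**Figure D2:**
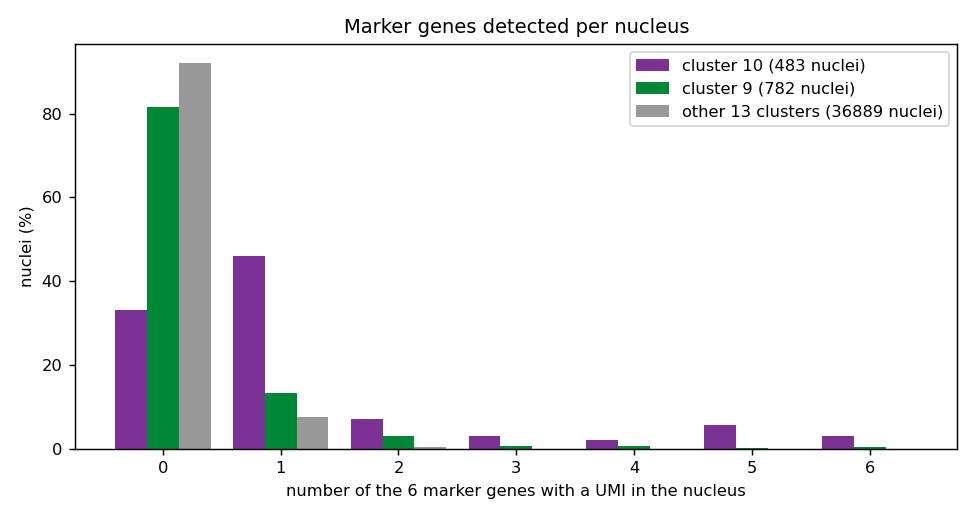
Percentage of nuclei by the number of the 6 marker genes that had a UMI in the nucleus, in cluster 10 (483 nuclei, purple), cluster 9 (782 nuclei, green) and the other 13 clusters (36889 nuclei, grey), without evening depth. In cluster 10, 33.1% of nuclei had no marker and 46.0% had 1.

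Nuclei were then split by marker number, a split chosen after these counts were seen and so given with no test. Those with 3 to 6 markers numbered 67 (13.9% of the cluster), of which 15 lay at the lower bound, with 34 nuclei just under it at 2 markers. They were deeper, with a median of 4778 UMIs and 2717 genes per nucleus, against 1805 UMIs and 1281 genes in the 416 nuclei with 0 to 2 markers. The markers chose these nuclei, so their own levels only restate the choice: the 67 nuclei held 96.1% of the cluster's Nrg1 UMIs, 82.6% of those of Tph1 and 71.6% of those of Tac1. Tph1 was read in 51 of them, Tac1 in 53 and both in 40.

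Leaving out the markers, and with a floor of 20 UMIs in the 416 nuclei so that no gene entered through the 67, 170 of 7693 genes (2.21%) were at least 2-fold higher in the 67 nuclei and 215 (2.79%) at least 2-fold lower. Of the 10 other enterochromaffin genes 5 met this floor, and Ddc, Slc18a1, Chga, Chgb and Gch1 were all higher. The floor was met by 9 of 31 genes of granules and exocytosis, of which 7 were higher, by 8 of 28 ion channels, of which 6 were, and by 4 of 24 transcription factors, of which 2 were (Rfx3 and Rfx6), and none of these genes was 2-fold lower. Of 11 genes of serotonin synthesis, storage and removal, 3 were higher (Ddc, Gch1 and Slc18a1) and 1 lower (Slc6a4, at 13.6 against 37.7 CPM), and the hormones Cck, Gip and Gcg all stood lower by less than 2-fold. Genes of other lists also differed. Muc2 and Galnt12 of 6 goblet genes and Asap1 and Rbms3 of 5 YAP targets were higher. Defa17 and Defa30 of 5 Paneth genes and Clu of 3 fetal genes were lower. Pooled over samples, Chga stood at 505 CPM in the 67 nuclei, 68.1 CPM in the 416 others of the cluster, 71.6 CPM in cluster 9 and 11.2 CPM in the other 13 clusters. Slc18a1 stood at 357, 47.2, 87.6 and 11.9 CPM in the same order and Ddc at 340, 83.9, 197 and 77.9 CPM. Trpa1 stood at 48.5 CPM in the 67 nuclei and at 2.096 CPM in the 416, so that 25 of its 27 UMIs lay in the smaller set. The transcription factor Rfx6 stood at 328 and 27.3 CPM and the granule gene Ptprn2 at 1978 and 147 CPM. In cluster 9 Rfx6 stood at 377 CPM, above the 67 nuclei.

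In the 67 nuclei, the genes furthest above the other 13 clusters were Slc38a11 (206-fold), Rab3c (181-fold), Trpa1 (149-fold), Pappa2 (143-fold) and Rimbp2 (135-fold), among genes with at least 20 UMIs there and leaving out the markers. Both the choice of these nuclei and the floor favour genes high in them, so these ratios describe and test nothing. Trpa1 entered on 25 UMIs. Rfx6 and Nkx2-2, factors of enteroendocrine differentiation, were 84.9-fold and 70.4-fold above. In the 222 nuclei with 1 marker the highest such ratio was 2.83, of the glutathione transferase Gstt1, followed by 2.72 for Kcnb2, a potassium channel. Just under that floor, with 19 UMIs each, Cdk14 stood at 36.5 CPM in these nuclei against 4.13 CPM in the other 13 clusters and Chga at 36.5 against 11.2 CPM, and Rab3c, with 10 UMIs, stood at 19.2 against 2.78 CPM. In the 160 nuclei with no marker the highest ratio was 50.2, of Cdk14, followed by 26.7 for Rab3c, 8.58 for Chga and 2.73 for Kcnb2. Of 11 enterocyte genes at that floor 2 were at least 2-fold lower in the 67 nuclei than in the 416 and none higher, Fabp1, a fatty acid binding protein, standing at 400 and 905 CPM. None of 6 ISC genes was 2-fold apart, Lgr5 standing at 382 and 409 CPM.

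Of the 160 nuclei with no marker, 131 (81.9%) held a UMI of at least 1 of 10 other leading genes, namely the 9 leading genes that are no markers and Chga. Of these 131 nuclei 97 held exactly 1 of the 10 genes. Among all 160 nuclei, Cdk14 was read in 63, Chga in 26 and Rab3c in 24. In the cluster's 222 nuclei with 1 marker the share was 30.2%, in all of cluster 9 it was 48.0%, and in nuclei without a marker in the other 13 clusters it was 11.1%. Since these 10 genes were chosen for their level in cluster 10, the share describes what the nuclei held and tests nothing.

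**Figure D3:**
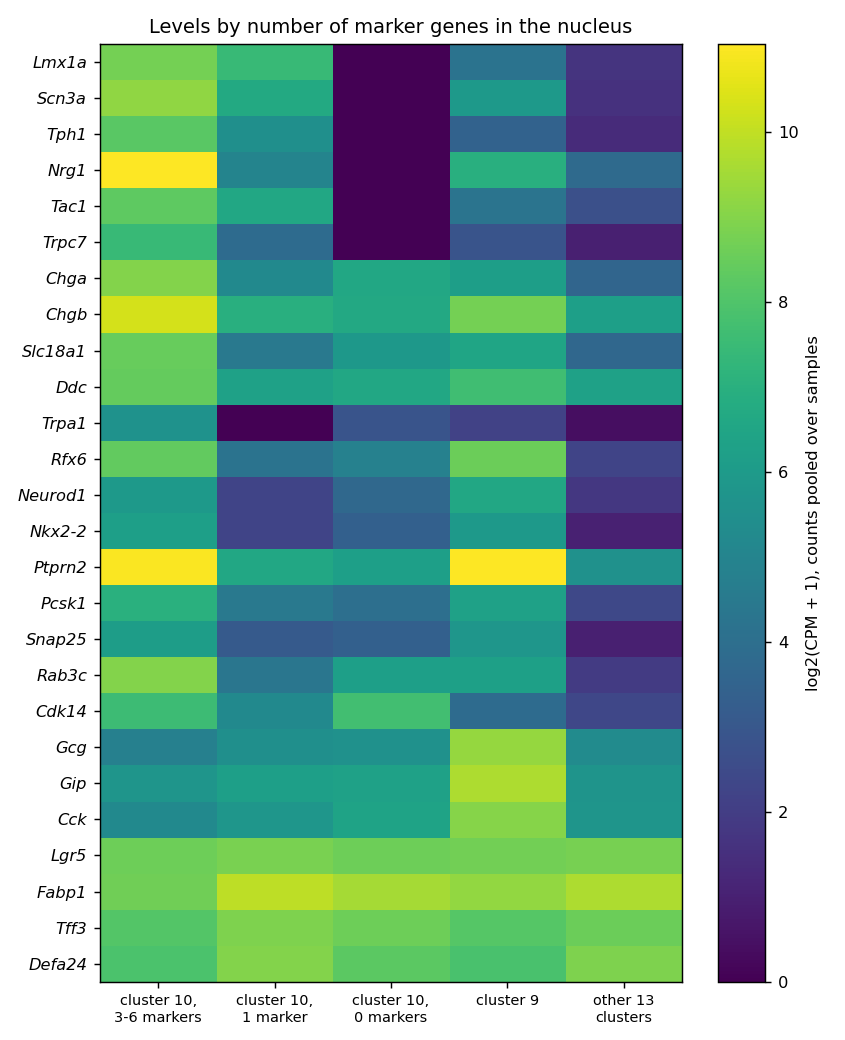
Level of 26 genes as log2(CPM + 1), from counts pooled over all 6 samples, in cluster 10 nuclei with 3 to 6, 1 or 0 markers, in cluster 9 and in the other 13 clusters (nuclei with 2 markers are not drawn). Colour gives the level. The 6 markers, in the top rows, are at 0 by construction in the third column. Chga, Slc18a1, Rfx6 and Ptprn2 are higher in the first column (505, 357, 328 and 1978 CPM) than in the second, whereas Gcg, Gip and Cck are highest in cluster 9.

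Cluster 9, which held 66.3% of all UMIs of the enteroendocrine factor Rfx6, had 43, 115 and 379 nuclei in QCM and 3, 54 and 188 in SCM. Over all genes with a UMI in cluster 10 in each of the 5 samples, 12 of 10685 (0.112%) were at least 2-fold higher in cluster 10 than in cluster 9 in every sample. Of the 10685 genes 7560 were high enough to reach that fold. Of 13336 genes with a UMI in cluster 9 in each of the 5 samples, 27 (0.202%) were at least 2-fold lower in cluster 10, where 6155 were high enough to reach that fold. Of 11 enterochromaffin genes 5 were among the higher ones, all of them markers given for the cluster (Tph1, Tac1, Lmx1a, Nrg1 and Trpc7), and Slc18a1, Chga, Chgb and Ddc were not. Ranked by their lowest ratio over the samples among genes with at least 50 CPM, the 12 furthest above cluster 9, of which the last 2 did not reach 2-fold in every sample, were Lmx1a, Cdk14, Tac1, Pappa2, Trpc7, Tph1, Grik4, Slc38a11, Dach2, Nrg1, Scn3a and Gstt1. Tph1 stood at 9.14, 1.47 and 4.23 CPM in cluster 9 of QCM 1, 2 and 3 and at 21.0 and 18.9 CPM in SCM 2 and 3, all below its lowest level in cluster 10. Scn3a was shared more, at 63.6 ± 23.9 CPM in cluster 9 and 270 ± 115 CPM in cluster 10 (SD, n = 5). Dach2, a transcriptional cofactor, and Gstt1 stood at 56.7 ± 34.9 and 69.1 ± 33.1 CPM in cluster 10 against 10.7 ± 4.41 and 20.1 ± 9.07 CPM in cluster 9.

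The genes furthest below cluster 9 held hormones and transcription factors. Gcg, the precursor of glucagon-like peptides, stood at 48.5, 36.2 and 61.5 CPM in QCM and at 28.6 and 10.4 CPM in SCM, against 282 to 910 CPM in cluster 9. Gip and Cck stood at 61.3 ± 47.5 and 52.2 ± 31.5 CPM in cluster 10 against 704 ± 736 and 476 ± 296 CPM in cluster 9 (SD, n = 5). The means of all 3 hormones in cluster 10 were below those in the nuclei outside it, with overlapping ranges over the samples. The transcription factors Etv1, Pax6 and Isl1 were read 10, 8 and 5 times in cluster 10 and stood at 169 ± 71.7, 91.8 ± 33.7 and 79.1 ± 29.2 CPM in cluster 9. St18 stood at 32.2 ± 6.23 against 206 ± 81.7 CPM. Cpe, the carboxypeptidase that trims prohormones, stood at 24.7 ± 10.1 CPM in cluster 10 and 216 ± 82.3 CPM in cluster 9. Sphkap, Gm16183, Cbfa2t3 and Adgrg4 completed the 12, with means of 2.59 to 15.7 CPM in cluster 10 and 65.9 to 132 CPM in cluster 9. Neurod1, Pax6, Isl1, St18 and Etv1 were the transcription factors at least 2-fold lower in every sample, Neurod1 standing at 27.5 ± 10.1 CPM in cluster 10 and 92.6 ± 14.7 CPM in cluster 9. Rfx6, at 137 ± 52.7 and 396 ± 167 CPM, did not reach 2-fold in every sample. Of 782 cluster 9 nuclei, 16 (2.05%) had 3 or more of the 6 markers.

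Whether SCM altered the number of these nuclei was asked first of their share, which, like the sums below, covers the 86.1% of cluster 10 nuclei with 0 to 2 markers too. Cluster 10 made up 0.765%, 0.921% and 2.02% of nuclei in QCM 1, 2 and 3 and 0.930%, 1.55% and 0.868% in SCM 1, 2 and 3. The groups overlapped, with 1.24% ± 0.68 in QCM and 1.12% ± 0.38 in SCM (SD, n = 3 each). On the log2 scale SCM differed from QCM by -0.13 (SE 0.49, adjusted p = 0.981, edgeR quasi-likelihood test with Benjamini-Hochberg adjustment over 15 clusters, of which 0, or 0%, were called). The two-sided exact permutation test of the share gave p = 0.9, where 3 against 3 samples cannot go below 0.1. Without SCM 1 that difference was -0.05 and the exact permutation p was 1.0. Its sign turned without QCM 3 (0.43) and without SCM 3 (0.066), and stayed below 0 when any other single sample was left out. Within clusters 9 and 10 combined, cluster 10 made up 38.1% ± 2.7 in QCM and 49.9% ± 14.3 in SCM (SD, n = 3 each, exact permutation p = 0.4). Without SCM 1 the SCM value was 46.2% ± 18.2 (SD, n = 2, exact permutation p = 0.8).

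The nuclei with 3 to 6 markers numbered 9 of 29, 14 of 73 and 22 of 205 in QCM and 0 of 4, 6 of 78 and 16 of 94 in SCM. As a share of all nuclei they made up 0.237%, 0.177% and 0.217% in QCM and 0.119% and 0.148% in SCM 2 and 3. In SCM 1 none was found among 430 nuclei, which allows a share of up to 0.698% by the limit of 3 counts and 0.885% by the Wilson interval. After evening depth to 1000 UMIs the shares were 0.0528%, 0.134% and 0.157% in QCM and 0.0417% and 0.0773% in SCM 2 and 3, which overlap. Counted in any cluster, nuclei with 3 or more markers made up 0.396%, 0.240% and 0.246% in QCM and 0.259% and 0.212% in SCM 2 and 3. No test was made of this split.

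**Figure D4:**
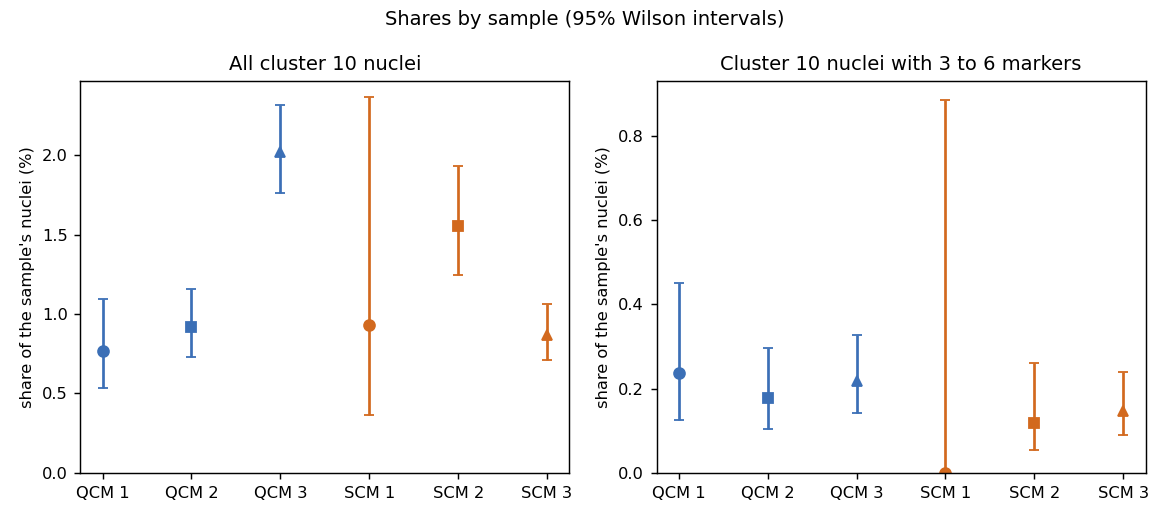
Share of each sample's nuclei in percent (blue QCM, orange SCM), for all cluster 10 nuclei on the left and for those with 3 to 6 markers on the right, with bars giving 95% Wilson intervals, which cover counting error only. On the left QCM spans 0.765% to 2.02% and SCM 0.868% to 1.55%, and on the right the interval of SCM 1 covers all the other points.

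Genes were then compared between SCM and QCM within cluster 10, over 3 QCM and 2 SCM samples. None of 6302 genes passed (0%, lowest adjusted p 0.638, edgeR quasi-likelihood test with Benjamini-Hochberg adjustment), and DESeq2 and limma with voom also called 0. In the edgeR test 466 genes (7.39%) had an unadjusted p under 0.05, of which only 81 were higher in SCM. With the share of ribosomal protein genes as a covariate there were 171 such genes (2.71%), 92 of them higher. The labels do not say that replicates came from separate mice, so these p-values measure only the spread between these samples. Xist set replicate 1 of both media apart from replicates 2 and 3. Of the samples used here only QCM 1 was high in it (3455 CPM in cluster 10), and the fits held no term for this. Tph1 and Tac1 were estimated lower in SCM by log2 values of -0.99 (SE 0.42) and -0.92 (SE 0.34), Nrg1 by -1.22 (SE 0.59) and Scn3a by -0.95 (SE 0.44), and none of these passed (adjusted p = 0.638 for each, edgeR). These estimates moved with the samples: Tph1 was at -0.53 without SCM 2 and -1.58 without SCM 3, Scn3a at -0.48 without QCM 1, Nrg1 at -0.59 without QCM 1 and Tac1 at -0.54 without SCM 2. Lmx1a and Trpc7 were both at -0.32 (SE 0.30 and 0.47). Leaving out 1 sample moved Lmx1a from -0.66 to 0.011 and Trpc7 from -1.40 to 0.31, so that their sign was not fixed. For the other 5 markers SCM 3 lay within or above the range of the QCM samples. For Tph1 SCM 3 lay just under the lowest QCM sample. How many of all genes had both SCM samples below every QCM sample in these sums was not counted. Nuclei with 3 to 6 markers held 40.4%, 51.9% and 18.3% of the summed UMIs in QCM and 26.5% and 48.3% in SCM 2 and 3. What these unlike shares add to the estimates was not tested.

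All 11 enterochromaffin genes tested, the 6 markers among them, had estimates below 0. Their median log2 value was -0.43 against -0.02 over all 6302 genes, of which 51.9% were below 0. Scaled by library size alone, 10 of the 11 were below 0 with a median of -0.21, while the median of all genes moved to 0.18. Without SCM 2, 7 of the 11 were below 0. In the difference of the SCM effect from all other nuclei, 10 of the 16 listed genes were above 0 and 6 below. Their median was 0.32, against -0.03 over all genes. In the difference from cluster 9, 9 of 12 were below 0 and 3 above, with a median of -0.67. Within cluster 10, the 7 transcription factors and 4 hormones tested were also all below 0, with medians of -0.69 and -1.28. So were all 6 goblet genes (median -0.52), 7 of 9 enterocyte genes (median -0.67) and 3 of 4 Paneth genes (median -2.53). The Paneth median was the lowest of all the lists. The 3 fetal genes tested were all above 0, as were 3 of 5 YAP targets, 3 of 6 ISC genes and 3 of 6 Notch genes. Of these lists 0 genes were called. Ribosomal protein genes made up 15.04%, 5.94% and 11.2% of cluster 10 UMIs in QCM 1, 2 and 3 and 3.20% and 6.64% in SCM 2 and 3, which overlap. With that share as a covariate Tph1 was at -0.22, Scn3a at -0.22, Nrg1 at -0.56 and Tac1 at -0.89 on the log2 scale, and none passed. The share comes from the same counts and was lower on average in SCM, and the fit had only 5 samples. What the share accounts for was not tested.

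Within the 67 nuclei with 3 to 6 markers, the same genes can be read per sample, with no test. Tph1 stood at 443, 233 and 471 CPM in QCM and at 185 and 195 CPM in SCM 2 and 3. Ptprn2, which had no part in the split, stood at 2501, 2226 and 2447 CPM in QCM and at 1773 and 1182 CPM in SCM. Tac1 stood at 203, 310 and 740 CPM against 154 and 245 CPM, and Trpc7 at 102, 163 and 350 CPM against 108 and 166 CPM. Nrg1 stood at 3729, 1962 and 2071 CPM against 1434 and 1204 CPM. Both SCM samples lay below all QCM samples for Tph1, Nrg1, Scn3a, Lmx1a and Ptprn2, of which all but Ptprn2 are markers that chose the nuclei. The same held for Rfx6, Ddc, Rab3c, Celf2 and Defa24, and on few UMIs for Gcg and Gip, while Ano1 lay above. Of 5772 genes with at least 20 UMIs in these same nuclei, 8.8% lay below in this way and 13.4% above. The groups overlapped for Tac1, Trpc7, Chga, Chgb, Slc18a1, Trpa1, Lgr5 and Fabp1. The SCM values rest on 6 and 16 nuclei. Chga stood at 314, 427 and 1103 CPM against 262 and 519 CPM.

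The genes with the smallest unadjusted p did not pass either (adjusted p = 0.638 for each gene named here, edgeR). Ano1, a calcium-activated chloride channel, had 1, 1 and 7 UMIs in QCM and 14 and 41 in SCM, a log2 value of 3.14 (SE 0.63). It stood at 3.73, 4.02 and 17.2 CPM in QCM and at 57.2 and 143 CPM in SCM. Of its UMIs, 38 of 41 in SCM 3 and 5 of 14 in SCM 2 lay in the nuclei with 3 to 6 markers. Ano1 was also higher in the nuclei outside cluster 10, at 9.002, 22.1 and 24.7 CPM in QCM and 179 and 60.4 CPM in SCM. The synaptic scaffold gene Grip1 and the phosphorylase kinase subunit Phka1 had log2 values of 2.099 and 2.08. Ssr2, of the protein translocation machinery, and Atp6v1f, of the vacuolar proton pump, had values of -1.72 and -1.96. Without the low-count filter each gene named here was among 118 called, a list led by Xist. Ano1 also passed when scaled by library size alone (adjusted p = 0.0253, edgeR).

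The difference of the SCM effect between cluster 10 and cluster 9 was tested for 8912 genes, and 0 passed (0%, lowest adjusted p 0.317, edgeR), with 316 (3.55%) at an unadjusted p under 0.05 and 0 called by limma with voom. The smallest p-values in the falling direction belonged to 3 markers. Tph1 differed by -2.77 on the log2 scale (SE 0.58), Nrg1 by -1.70 (SE 0.37) and Scn3a by -1.59 (SE 0.35), each with an adjusted p of 0.317 by edgeR. For Tph1 the cluster 9 sums held 7, 1 and 4 UMIs in QCM and 9 and 16 in SCM. Without the filter on low counts, which raises the number of genes to 24871, all 3 passed, with adjusted p-values of 0.0189, 0.00430 and 0.0337 by edgeR. Within cluster 10 the fit without that filter called 118 genes, led by Xist, which was high in QCM 1 alone of the samples used. With the filter, scaling by library size alone called 0 genes against cluster 9. Without QCM 1 Nrg1 passed as well (-2.09, adjusted p = 1.14e-05, edgeR). In the rising direction Gm10974, Pcsk6 and Anxa13 differed by 2.94, 1.98 and 1.502 and did not pass, whereas without the filter Gm10974 passed (adjusted p = 0.0250, edgeR).

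Against all other nuclei of the same samples, 4 of 18353 genes (0.0218%) passed, 1 upward and 3 downward, with 611 (3.33%) at an unadjusted p under 0.05 and 0 called by limma with voom. Celf2, an RNA-binding regulator of splicing, stood at 175, 149 and 83.6 CPM in cluster 10 of QCM and at 49.0 and 62.6 CPM in SCM, while the other nuclei stood at 15.6, 24.9 and 22.0 CPM in QCM and 34.8 and 19.6 CPM in SCM. The effects differed by -1.61 on the log2 scale (SE 0.36, adjusted p = 0.0398, edgeR), and the call was lost without QCM 1 (-1.18), QCM 2 (-1.59) or SCM 2 (-1.001). Gm10974, a predicted gene, had 2, 3 and 4 UMIs in cluster 10 of QCM and 21 and 11 in SCM, and differed by 2.61 (SE 0.53, adjusted p = 0.0072, edgeR). Its call was lost without QCM 3 (2.44) or SCM 2 (2.21). Cwh43, of GPI-anchor remodelling, differed by -2.85 (SE 0.64, adjusted p = 0.0398, edgeR), since it stood at 33.5, 24.1 and 41.8 CPM in cluster 10 of QCM and 28.6 and 20.9 CPM in SCM while the other nuclei went from 3.31, 2.04 and 2.36 CPM to 23.7 and 5.73 CPM. Its call was lost without QCM 1 (-3.08), QCM 2 (-2.84), QCM 3 (-2.50) or SCM 2 (-1.85). Samd4, an RNA-binding repressor of translation, had 7, 4 and 7 UMIs in cluster 10 of QCM and none in SCM 2 and 3, so that its fitted value depends on the prior count and sets no bound (adjusted p = 0.000156, edgeR), and its call was lost without SCM 2. None of the 6 markers passed this test with all 5 samples. Nrg1 was at -0.63 (adjusted p = 0.774, edgeR), passed without QCM 3 (-1.29, adjusted p = 6.9e-07) and was at -0.17 without QCM 1.

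**Figure D5:**
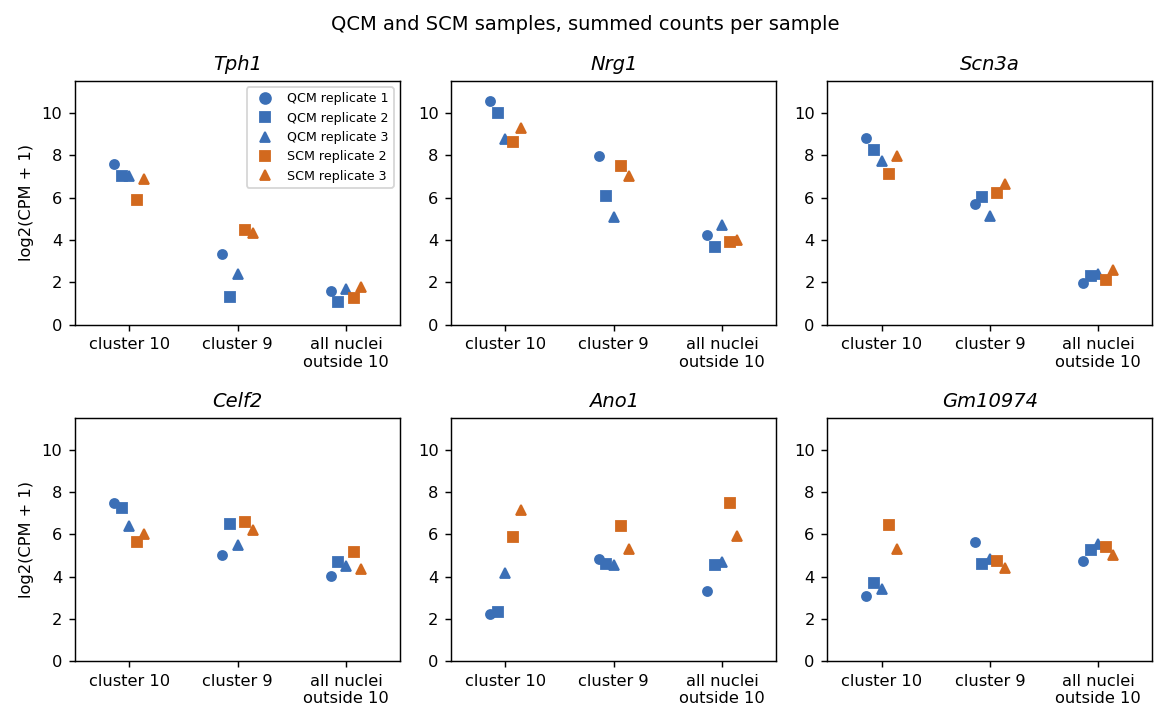
Level of 6 genes as log2(CPM + 1) of counts summed per sample, in cluster 10, cluster 9 and all nuclei outside cluster 10 (blue QCM, orange SCM, 1 point per sample). In cluster 10 the SCM points of Ano1 (57.2 and 143 CPM) and Gm10974 (85.8 and 38.3 CPM) lie above all QCM points and those of Celf2 (49.0 and 62.6 CPM) below them. The share of all genes without overlap in these sums was not counted.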

How the data were processed

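Frozen jejunal organoids in QCM or SCM (3 samples each) were profiled by 10x 3′ v3.1 single-nucleus RNA-seq. The authors counted UMIs with Cell Ranger (2.1.1 in the submitters' processing notes) on mm10, removed nuclei deviating in mitochondrial share, reads or features, and clustered after Harmony integration. The deposited matrix holds UMI counts of 31319 genes and the deposited metadata the cluster, the sample and a mitochondrial fraction per nucleus, used here only for medians. No further filter or doublet caller was applied, and 0 unmapped columns were present. Cluster numbers, the 6 markers, gene lists and tests were chosen with earlier results of these data known.

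Counts were summed per sample over cluster 10, cluster 9 and all nuclei outside cluster 10. Samples with under 10 cluster 10 nuclei (SCM replicate 1) were left out of gene comparisons. Sums held 244670 to 406556 UMIs, so a gene at 10 CPM rests on few UMIs. A ratio was counted where it reached 2-fold in every sample, with denominators under 3 counts set to 3. Tests used edgeR 4.0.16 (R 4.3.3; TMM, filterByExpr, quasi-likelihood, Benjamini-Hochberg, threshold 0.05), with sample as a term in interactions and a common dispersion for shares. Exact permutation tests were two-sided (SciPy 1.17.1). DESeq2 1.42.0 and limma 3.58.1 were alternatives. The fits were also run on simulated data of 1 fixed spread, a check of the code that does not measure what these samples could show. Genes named were the markers, examples from the lists, the 15 leading genes over other nuclei and 12 each way against cluster 9 (at least 50 CPM), and, per test, the 5 called each way or, with none called, the 3 with the smallest p. Genes of the marker-number split, Xist, and further examples were chosen after their values were seen. A gene that this rule would name is not reported here.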

Additional observations from a re-analysis of the deposited data

Results flagged for a closer look

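For 4 genes the SCM effect in cluster 10 differed from that in all other nuclei of the same samples by the edgeR test of the difference itself. The log2 differences were -1.61 for Celf2, 2.61 for Gm10974, -2.85 for Cwh43 and -12.8 for Samd4, with adjusted p-values of 0.0398, 0.0072, 0.0398 and 0.000156. Other settings gave adjusted p-values between 0.0023 and 1 for Celf2 and Gm10974, between 0.012 and 1 for Cwh43 and between 0.00011 and 0.922 for Samd4 (the tools being edgeR and limma). The value of Samd4 rests on 7, 4 and 7 UMIs in QCM against 0 in SCM 2 and 3 and is no bound. In cluster 10, Cwh43 had 9, 6 and 17 UMIs in QCM and 7 and 6 in SCM.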

How the results depend on the processing

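Of 363 values recomputed under another setting, 308 kept their direction and side of the threshold, or stayed within 1.5 times. A value not called counts as kept when it stays uncalled. Among named genes 14 values lost a call, all of them values of the 4 genes called against all other nuclei. Calls within cluster 10 numbered 0 and became 1 with library size alone (Ano1) and 118 (8 higher and 110 lower in SCM) without the low-count filter. The smallest adjusted p among the 118 belonged to Xist, and Tsix was also called, and Xist was near 0 in all samples used but QCM 1. Against cluster 9, 0 became 8 without that filter. Against all other nuclei, 4 became 0 with limma and voom. Leaving out 1 replicate each gave 0 to 31 calls within cluster 10 (31 without QCM 2, all lower in SCM), 0 to 1 against cluster 9 (Nrg1 without QCM 1, Apoa4 without SCM 2) and 0 to 9 against all other nuclei (9 without QCM 3, 0 without SCM 2). At 4-fold the descriptive counts became 60 higher than other nuclei, and 4 higher and 2 lower than cluster 9. With SCM 1 included they became 12, 0 and 13. Leaving out 1 replicate they ranged from 127 to 158 higher and 0 to 1 lower than other nuclei, and from 13 to 19 higher and 28 to 87 lower than cluster 9 (19 without SCM 2, 87 without QCM 1).

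The log2 share ratio ranged from -0.48 to 0.43, at 0.43 without QCM 3 and 0.066 without SCM 3. Lmx1a within cluster 10 was 0.030 without the 5% of nuclei with the most UMIs. Leaving out replicates moved Lmx1a from -0.66 to 0.011 and Trpc7 from -1.40 to 0.31 within cluster 10, Lmx1a from -1.01 to 0.037, Tac1 from -1.17 to 1.54 and Trpc7 from -0.71 to 3.43 against cluster 9, and Lmx1a from -0.11 to 0.58 against other nuclei. Beyond fewer or more samples or genes, the cause was not tested.

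Whether the replicate numbers pair the samples is not known, since the labels do not say so. Over 19046 genes of all nuclei, the deviations of same-numbered samples correlated at 0.364, 0.456 and -0.0851. Those of differently numbered samples correlated at -0.46 to 0.163. Xist was high in both replicate 1 samples and in no other. With the replicate block 0 genes were called within cluster 10, Tph1, Scn3a and Nrg1 were at -0.66, -0.49 and -0.54, and the share ratio was -0.12 (adjusted p = 0.889, edgeR). The interactions already held the sample as a term. SCM 1 held 4 cluster 10 nuclei and SCM 2 held 14 Tph1 UMIs there, and the size of change that this depth could show was not measured.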
